A study of Rattus norvegicus with 12 samples.

Results

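Lysyl oxidases and elastic fibre proteins build and cross-link the stretchable part of the extracellular matrix. The genes described here are the 5 lysyl oxidase genes Lox, Loxl1, Loxl2, Loxl3 and Loxl4, and 5 elastic fibre genes, Eln, Fbn1, Fbln1, Fbln5 and Mfap4. They were taken by symbol from the read-count table, which held 30045 rows. All 10 were present and all 10 were among the 17330 genes with enough counts to be tested.

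Transcripts were sequenced from theca-interstitial cells, the steroid-making cells of the follicle wall and stroma, of wild-type female Sprague Dawley rats at postnatal day 30. The isolated cells grew in McCoy's 5A medium on human fibronectin for 48 h with rat IL-1β, an inflammatory cytokine, with LPS, a bacterial cell wall component, or with vehicle. Each of the 3 groups held 4 libraries. A concentration of 1 µg/ml is written after LPS, and it is not clear from the labels whether it also applies to IL-1β. Nothing in the labels tells if replicates are separate animals or isolations. The spread behind every p-value is therefore that between libraries, which may be technical.

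As background, elastic fibres form when tropoelastin, the product of Eln, is laid onto a scaffold of fibrillin microfibrils, of which Fbn1 encodes the main component. Fibulin-5 (Fbln5) and the microfibril-associated glycoprotein MFAP4 bind tropoelastin and help to place it, and fibulin-1 (Fbln1) lies in elastic fibres and basement membranes. Lysyl oxidases are secreted copper enzymes that oxidise lysines of elastin and collagen, which starts the cross-links that make the matrix strong and insoluble. In the ovary the matrix of the follicle wall is remodelled through follicle growth and rupture.

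Library totals were 23193408 to 26836323 counts for IL-1β, 25643226 to 28698783 for LPS and 20873934 to 32090924 for vehicle. Marker genes of theca, fibroblast, smooth muscle, endothelial, macrophage, granulosa and surface epithelial cells were all detected, with no marker in the table at 0 in every library. The 6 theca markers together made 517 to 569 CPM with IL-1β, 369 to 429 CPM with LPS and 136 to 167 CPM with vehicle, where CPM is the count scaled to a common library total. Star made up most of each sum, at a mean of 405 CPM with IL-1β, 353 CPM with LPS and 141 CPM with vehicle. Cyp17a1, the androgen-making enzyme that defines theca cells, averaged 15.5 CPM with IL-1β and 3.39 CPM with LPS, but only 0.537 CPM with vehicle. In a principal component analysis LPS replicates 3 and 4 lay apart from LPS replicates 1 and 2 on the second component (24.7 and 21.3 against 10.5 and 12.6), so calls and values that move without them are also given for LPS replicates 1 and 2 alone.

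Promoter windows, from 250 bases before to 50 bases after the RefSeq start in build GRCr8, were found for 5 of the 10 genes. Lox, Loxl2, Eln, Fbln1 and Mfap4 had no entry. The windows of Fbln5 and Loxl1, which fell with both treatments, and of Loxl4, which passed the test in neither, are shown to set genes that passed the test beside a gene that did not. Capitals mark matches, on either strand, to the SMAD box CAGAC, the SP1 site GGGCGG, the TATA box TATAAA, the AP-1 site TGANTCA, the CArG box and the NF-kB consensus.
Fbln5, chr6:126742657-126742956, minus strand: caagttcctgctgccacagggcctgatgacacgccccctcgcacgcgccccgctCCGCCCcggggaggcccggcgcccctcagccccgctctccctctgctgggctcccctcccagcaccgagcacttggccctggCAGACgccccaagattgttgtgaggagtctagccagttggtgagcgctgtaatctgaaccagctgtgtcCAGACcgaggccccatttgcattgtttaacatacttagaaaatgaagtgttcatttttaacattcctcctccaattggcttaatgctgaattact
Loxl1, chr8:67612175-67612474, minus strand: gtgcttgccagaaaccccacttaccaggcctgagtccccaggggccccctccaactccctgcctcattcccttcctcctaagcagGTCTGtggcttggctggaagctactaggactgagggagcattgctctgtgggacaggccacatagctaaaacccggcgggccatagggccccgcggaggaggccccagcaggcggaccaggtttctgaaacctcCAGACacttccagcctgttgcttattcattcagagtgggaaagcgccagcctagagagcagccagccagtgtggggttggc
Loxl4, chr1:251365528-251365827, minus strand: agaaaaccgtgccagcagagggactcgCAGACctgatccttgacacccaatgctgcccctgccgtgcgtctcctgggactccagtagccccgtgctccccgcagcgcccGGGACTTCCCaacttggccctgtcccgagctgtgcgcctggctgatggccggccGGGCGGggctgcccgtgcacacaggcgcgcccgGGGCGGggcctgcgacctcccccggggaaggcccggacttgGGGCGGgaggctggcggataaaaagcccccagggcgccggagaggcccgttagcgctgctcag

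Fbln5 and Loxl1 each held the SMAD box at 2 places, starting at -114 and -45 in Fbln5 and at -165 and -31 in Loxl1, counted from the start site. Fbln5 also held an SP1 site at -196, and Loxl4 held a SMAD box at -223. The window of Loxl4 held the only match to the NF-kB consensus among the 5 windows, GGGACTTCCC at -141, with 3 SP1 sites downstream of it. Fbn1 and Loxl3, whose windows are not shown, also fell with both treatments. Fbn1 held 1 SMAD box at -188, and the window of Loxl3 held none of the 6 motifs. Of all 33469 rat windows of this length, 50.06% held the SMAD box, 33.06% the SP1 site, 14.22% the TATA box, 7.33% the AP-1 site, 1.64% the CArG box and 4.18% the NF-kB consensus. A match is a description of letters and not evidence of a bound factor.

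Of the 5 elastic fibre genes 4 fell with each stimulus, and the size of the fall differed widely among them. Eln, Fbln5 and Mfap4 were left at 17.5% to 26.0% of the control level with IL-1β and at 23.0% to 32.1% with LPS, while Fbn1 kept 89.7% with IL-1β and 79.0% with LPS. Among the lysyl oxidases Loxl2 had the largest fall, to 47.4% with IL-1β and 49.0% with LPS. Loxl4 passed the test with neither stimulus, and Fbln1 rose with IL-1β. In all, 7 of the 10 genes fell and 1 rose with IL-1β, where 23.0% of all genes tested were called lower and 24.7% higher. With LPS 8 fell and 0 rose, where 20.0% of all genes were called lower and 22.5% higher. Calls are adjusted p-values under 0.05 from edgeR's quasi-likelihood test over all genes tested.

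**Figure D1:**
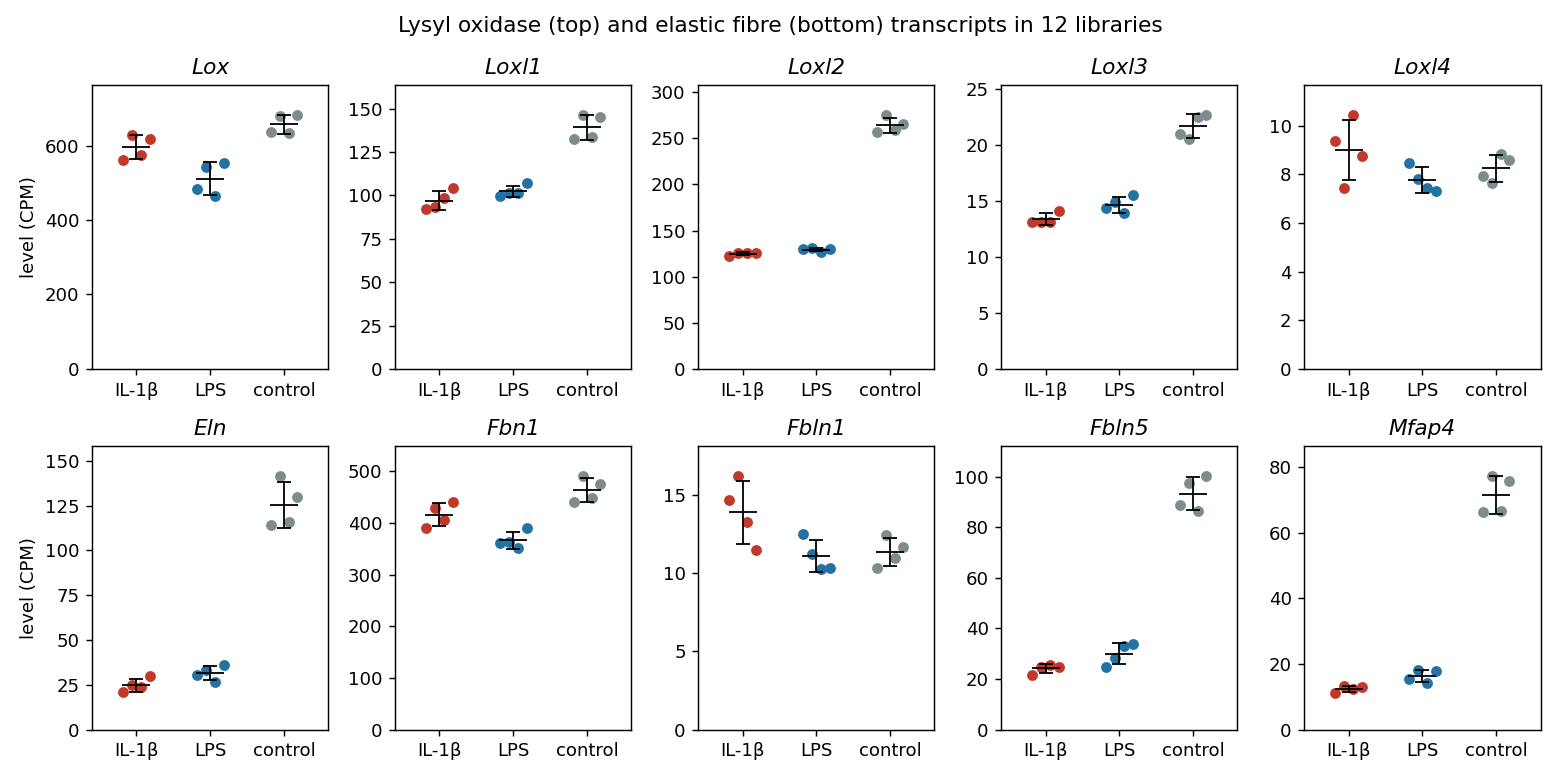
Level of each gene in CPM (vertical axes from 0, with a scale of their own) in the 4 IL-1β, 4 LPS and 4 control libraries, with points in the order of replicates 1 to 4 and bars at the mean ± SD. For Eln, Fbln5 and Mfap4 every treated library lies far below every control library, whereas Loxl4 and Fbln1 overlap between groups.

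Eln, the gene of tropoelastin, had 21.0, 24.8, 23.9 and 29.8 CPM in the IL-1β libraries, replicates 1 to 4. It had 30.5, 33.2, 26.6 and 35.9 CPM with LPS, against 114, 142, 116 and 130 CPM with vehicle. All treated libraries lay far below all control libraries, and the treated groups overlapped each other. The log2 fold change was -2.34 ± 0.12 with IL-1β (adjusted p = 6.72e-08; ± after a log2 fold change is the SE, with 4 libraries per group). With LPS it was -1.99 ± 0.12 (adjusted p = 2.27e-07).

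Mfap4, whose glycoprotein binds tropoelastin and fibrillin, had 11.3, 13.4, 12.3 and 12.99 CPM with IL-1β. It had 15.5, 18.1, 14.3 and 17.9 CPM with LPS, against 66.4, 77.2, 66.5 and 75.8 CPM with vehicle. The 3 groups did not overlap with each other. It fell 5.73-fold with IL-1β (log2 fold change -2.52 ± 0.08) and 4.34-fold with LPS (-2.12 ± 0.07), the largest falls of the 10 genes in both comparisons. Only 16 of the 17330 genes tested had a lower log2 fold change with IL-1β. The counts of Mfap4 differed by at most 2 from those of the unnamed locus LOC102553715 in every library, so the same reads may stand in both rows and its level is uncertain.

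Fbln5, which organises tropoelastin on microfibrils, had 21.6, 24.8, 25.7 and 24.8 CPM with IL-1β. It had 24.8, 28.5, 33.1 and 33.7 CPM with LPS, against 88.7, 97.6, 86.5 and 100.2 CPM with vehicle. Both treated groups lay below every control library and overlapped each other. The fall was 3.85-fold with IL-1β (-1.95 ± 0.09) and 3.11-fold with LPS (-1.64 ± 0.09).

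Fbn1, the gene of fibrillin-1, had 391, 428, 405 and 439.7 CPM with IL-1β. It had 361, 364, 352 and 390 CPM with LPS, against 439.9, 491, 449 and 476 CPM with vehicle. The groups were separate, though the highest IL-1β library came within 1 CPM of the lowest control library. The log2 fold change was -0.16 ± 0.04 with IL-1β (adjusted p = 0.00352) and -0.34 ± 0.04 with LPS (adjusted p = 1.02e-06), both by the same edgeR test.

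Fbln1, the gene of fibulin-1, had 14.7, 16.2, 13.2 and 11.5 CPM with IL-1β. It had 12.5, 11.2, 10.3 and 10.3 CPM with LPS, against 10.3, 12.4, 10.98 and 11.7 CPM with vehicle. All 3 groups overlapped. It was called higher with IL-1β in the edgeR fit (0.29 ± 0.09, adjusted p = 0.0102), a call lost without IL-1β replicate 2 (0.21, adjusted p = 0.0539). With LPS the log2 fold change was -0.03, with a 95% interval of -0.22 to 0.16, and its sign turned without Control replicate 2, LPS replicate 3 or LPS replicate 4, with library size alone, and with LPS replicates 1 and 2 alone (0.06).

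Of the lysyl oxidase genes 3 of 5 fell with IL-1β and 4 of 5 with LPS. Loxl2, whose enzyme acts on collagens including the collagen IV of basement membranes, had 123, 126, 126 and 126 CPM with IL-1β. It had 130.3, 131, 127 and 130.1 CPM with LPS, against 256, 275, 259 and 265 CPM with vehicle. Within each treated group the libraries lay within 5 CPM of each other, and all lay near the middle between 0 and the control level. The fall was 2.11-fold with IL-1β (-1.08 ± 0.03) and 2.04-fold with LPS (-1.03 ± 0.03).

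Loxl1, whose enzyme keeps elastic fibres cross-linked and binds fibulin-5, had 92.0, 93.1, 98.6 and 104 CPM with IL-1β. It had 99.9, 101, 102 and 107 CPM with LPS, against 132, 146, 134 and 145 CPM with vehicle. All treated libraries were lower than all control libraries (-0.52 ± 0.04 with IL-1β and -0.45 ± 0.04 with LPS). Loxl3, an oxidase of collagen and elastin, averaged 13.4 ± 0.513 CPM with IL-1β, 14.7 ± 0.701 CPM with LPS and 21.7 ± 1.06 CPM with vehicle (SD, n = 4 each). It fell by 0.70 ± 0.06 with IL-1β and by 0.56 ± 0.06 with LPS on the log2 scale.

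Lox, the founding member of the family, had 562, 628, 576 and 617 CPM with IL-1β. It had 482, 544, 466 and 555 CPM with LPS, against 636, 678, 634 and 681 CPM with vehicle. Every treated library was below every control library. It fell with LPS (-0.36 ± 0.06, adjusted p = 3.13e-04 in edgeR). With IL-1β the log2 fold change of -0.14 ± 0.06 was not past the threshold (adjusted p = 0.0663), with a 95% interval of -0.27 to -0.01. It was called with DESeq2 (-0.15, adjusted p = 0.0102), with limma-voom (-0.14, adjusted p = 0.0148), in the edgeR fit on 8 libraries (-0.14, adjusted p = 0.00206) and with the replicate number as a block (-0.14, adjusted p = 2.58e-05). It was also called without IL-1β replicate 2 (-0.17), without LPS replicate 3 or 4 (-0.14 each) and with LPS replicates 1 and 2 alone (-0.14). With library size alone it shrank to -0.09 (adjusted p = 0.209 in edgeR).

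Loxl4, a further amine oxidase of the family, had 9.37, 7.44, 10.4 and 8.76 CPM with IL-1β. It had 8.49, 7.80, 7.44 and 7.31 CPM with LPS, against 7.93, 7.65, 8.83 and 8.59 CPM with vehicle. The groups overlapped throughout. Its log2 fold change was 0.13 with IL-1β (95% interval -0.05 to 0.32) and -0.08 with LPS (95% interval -0.27 to 0.10). Without IL-1β replicate 2 it was called higher with IL-1β (0.21, adjusted p = 0.0499 in edgeR), and without IL-1β replicate 3 it stood at 0.05.

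For 8 of the 10 genes every library of a treated group lay below every control library, in both comparisons. Of all genes tested 44.2% had groups that did not overlap with IL-1β, 21.4% with the treated group lower, and 38.3% with LPS, 18.2% with the treated group lower. The 4 genes that fell at least 2-fold, Loxl2, Eln, Fbln5 and Mfap4, were the same with both stimuli, where 2.36% of all genes tested fell as far with IL-1β and 2.23% with LPS. Both comparisons share the 4 control libraries, so they are not independent of each other. The median log2 fold change of the 10 genes was -0.61 with IL-1β and -0.50 with LPS, against 0.01 over all genes tested in each comparison.

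**Figure D2:**
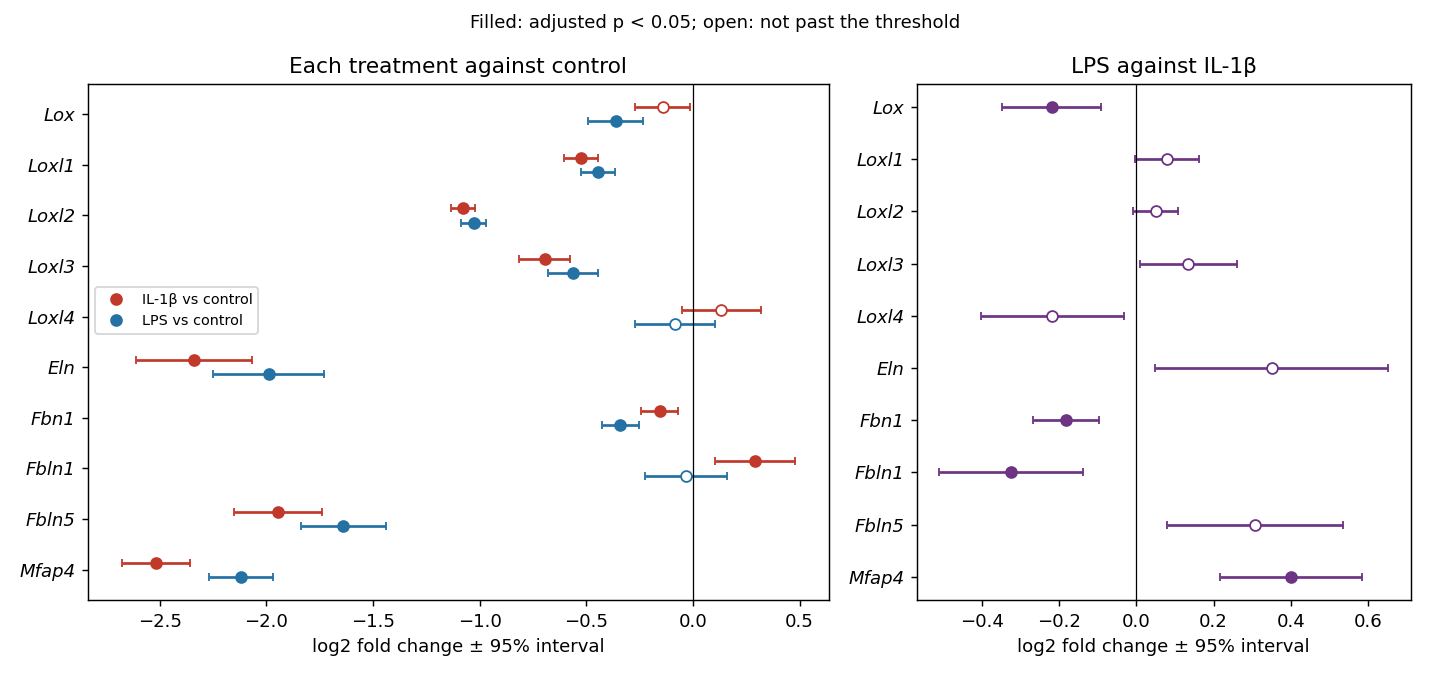
Log2 fold change (horizontal axes) with its 95% interval for each gene, with IL-1β and LPS against control on the left and LPS against IL-1β on the right; filled points had an adjusted p under 0.05. Eln, Fbln5 and Mfap4 lie near -2 with both stimuli, and on the right Lox, Fbn1 and Fbln1 lie below 0 while Mfap4 lies above it.

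Ratios within a library do not depend on how libraries were scaled, and they show how unequal the falls were. Per 100 counts of Lox there were 3.73 to 4.83 counts of Eln in the IL-1β libraries and 5.72 to 6.47 with LPS, against 17.96 to 20.9 with vehicle. Mfap4 had 2.01 to 2.14 counts per 100 Lox counts with IL-1β and 3.07 to 3.32 with LPS, against 10.4 to 11.4 with vehicle. Loxl2 had 20.1 to 21.8 with IL-1β and 23.5 to 27.2 with LPS, against 38.9 to 40.9 with vehicle. For these ratios none of the 3 groups overlapped. Lox itself was lower with LPS than with IL-1β (-0.22 ± 0.06), while Loxl2 differed by 0.05 ± 0.03, which was not past the threshold. The difference between the stimuli in these ratios therefore holds that of Lox as well. The ratio of Fbn1 to Lox overlapped in all groups, at 68.2 to 71.3 with IL-1β, 66.9 to 75.6 with LPS and 69.2 to 72.3 with vehicle. Lox made up 69.9% to 72.4% of the counts of the 5 lysyl oxidase genes with IL-1β and 65.1% to 68.1% with LPS, against 59.9% to 60.7% with vehicle. Counts are not per length here, so these ratios compare groups and not the levels of different genes.

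**Figure D3:**
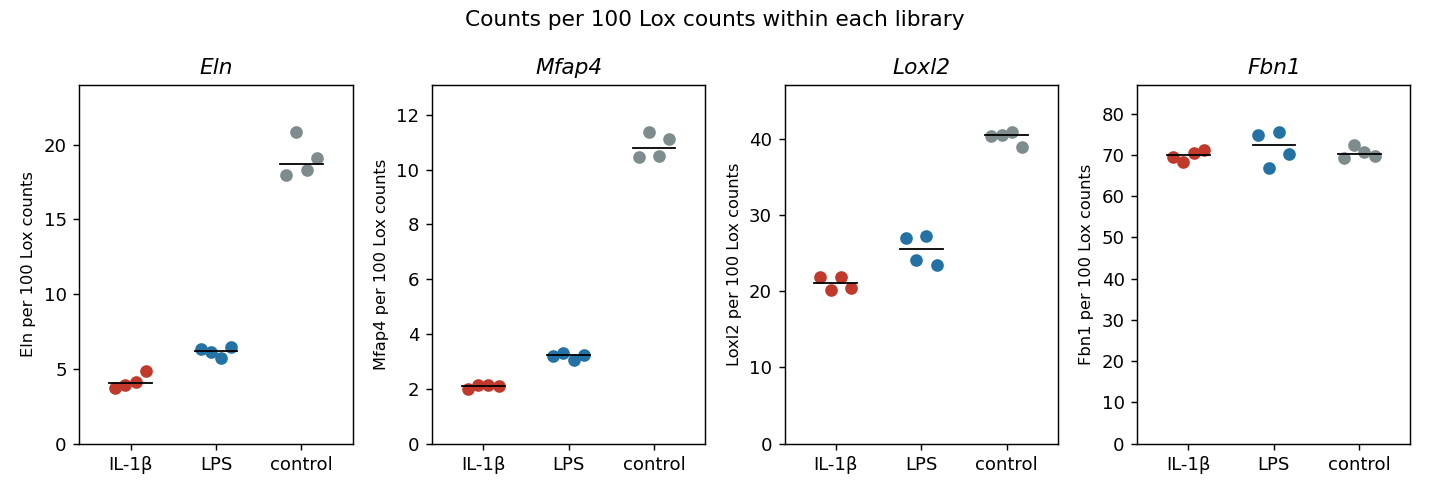
Counts of Eln, Mfap4, Loxl2 and Fbn1 per 100 Lox counts in each library (vertical axes from 0), with a line at the median of the 4 libraries of a group and points in the order of replicates 1 to 4. The first 3 ratios are lowest with IL-1β, next with LPS and highest in control libraries, and Fbn1 stays near 70 in all groups. Lox, the divisor, was itself lower with LPS than with IL-1β.

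LPS was set against IL-1β directly to test where the stimuli differed. Of the 10 genes 1 was higher and 3 were lower with LPS, where 11.3% of all genes tested were higher and 10.6% lower. Mfap4 was higher with LPS (0.40 ± 0.09, adjusted p = 0.00295 in edgeR). Lower with LPS were Fbn1 (-0.18 ± 0.04, adjusted p = 0.00292), Lox (-0.22 ± 0.06, adjusted p = 0.0197) and Fbln1 (-0.32 ± 0.09, adjusted p = 0.0117), all in the same edgeR fit. Lox and Fbn1 were lower in every LPS library than in every IL-1β library, and Loxl2 and Mfap4 were higher, so 4 of the 10 genes did not overlap, where 21.6% of all genes did not.

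Some of these calls were lost with fewer libraries. The call of Lox was lost without IL-1β replicate 2 (-0.19), without IL-1β replicate 4 (-0.20) and without LPS replicate 1 (-0.19). The adjusted p-values of Lox there were 0.051, 0.059 and 0.054 in edgeR, in that order. The call of Fbln1 was lost without IL-1β replicate 2 (-0.25) and with LPS replicates 1 and 2 alone (-0.23, adjusted p = 0.186 in edgeR). Mfap4 and Fbn1 were called in each of the 22 alternatives run.

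Eln (0.35, 95% interval 0.05 to 0.65, adjusted p = 0.0984 in edgeR) and Fbln5 (0.31, 95% interval 0.08 to 0.54, adjusted p = 0.0563 in edgeR) were not past the threshold between LPS and IL-1β. Eln was called higher with LPS by DESeq2 (adjusted p = 0.0404), by limma-voom (adjusted p = 0.0188), with the replicate block (adjusted p = 7.92e-04) and without IL-1β replicate 4 (0.44, edgeR). Fbln5 was called by DESeq2 (adjusted p = 0.0165), by limma-voom (adjusted p = 0.0182), with the replicate block (adjusted p = 0.00287), with either other count filter, on 8 libraries and without LPS replicate 1 (0.39, edgeR). With LPS replicates 1 and 2 alone the Fbln5 difference was 0.14 (adjusted p = 0.362 in edgeR). Loxl2 at 0.05 (95% interval -0.01 to 0.11) and Loxl3 at 0.13 (0.01 to 0.26) were not past the threshold. Loxl1 at 0.08 was called without IL-1β replicate 4 (0.11). Loxl4 at -0.22 was called without IL-1β replicate 2 (-0.30) and without LPS replicate 1 (-0.26), and stood at -0.14 without IL-1β replicate 3.

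The genes with the most similar course over the 12 libraries were found by Pearson correlation of log2 CPM among 11631 other genes. For Eln they were Acta2, the smooth muscle actin (r = 0.998), Tnnt2, a cardiac troponin (r = 0.998), and Thbd, thrombomodulin (r = 0.997). For Mfap4 they were Tnnt2 (r = 0.998), Acta2 (r = 0.998) and Mylk, the myosin light chain kinase (r = 0.997). For Lox the closest were Fkbp10 (r = 0.963), a collagen chaperone, Ltbp3 (r = 0.960), a latent TGF-β binding protein, and Pmp22 (r = 0.953), a myelin protein. For Fbn1 they were Fkbp10 (r = 0.971), Adamts2 (r = 0.968), a procollagen protease, and Maged1 (r = 0.964). The 12 libraries fall into 3 groups, so these values mostly describe a shared difference between groups.

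Most markers of smooth muscle fell, as Eln, Fbln5 and Mfap4 did, but not all by a similar amount. Of 8 such markers 7 fell and 1, desmin (Des), rose with IL-1β, and 7 fell and 0 rose with LPS. Their summed level was 1498 to 1701 CPM with IL-1β and 1809 to 2057 CPM with LPS, against 4704 to 5109 CPM with vehicle. Acta2 averaged 652 ± 49.6 CPM with IL-1β, 782 ± 60.5 CPM with LPS and 1982 ± 92.8 CPM with vehicle (SD, n = 4 each). Tagln averaged 733 CPM with IL-1β, 943 CPM with LPS and 2380 CPM with vehicle. Acta2 and Tagln thus made up most of each sum. Myocd, among the markers that fell, did so by only 0.22 ± 0.07 with IL-1β and 0.37 ± 0.07 with LPS on the log2 scale. The 6 fibroblast markers summed to 1664 to 1799 CPM with IL-1β, 1654 to 1816 CPM with LPS and 1657 to 1746 CPM with vehicle, so their sums overlapped in all groups. The sums hide members that moved both ways, with 4 higher and 2 lower with IL-1β, and 3 higher and 2 lower with LPS. Among them Pdgfra rose by 0.80 ± 0.04 with IL-1β and by 1.00 ± 0.04 with LPS, while Pdgfrb fell by 0.43 ± 0.05 with IL-1β and by 0.54 ± 0.05 with LPS. In bulk RNA fewer cells of a type and less RNA per cell cannot be told apart, and the part of cell makeup in the falls was not tested. The 6 macrophage markers summed to 27.4 to 30.9 CPM with IL-1β and 36.4 to 41.0 CPM with LPS, against 62.4 to 64.8 CPM with vehicle. The 6 endothelial markers summed to 279 to 320.0 CPM with IL-1β and 199 to 265 CPM with LPS, against 128 to 151 CPM with vehicle. Of these endothelial markers 6 rose with IL-1β and 5 with LPS, and of the macrophage markers 6 fell with IL-1β and 5 with LPS. The other macrophage marker, Emr1, rose with LPS (0.31 ± 0.06) and made up most of the LPS sum. Its mean was 5.95 CPM with IL-1β, 21.9 CPM with LPS and 17.6 CPM with vehicle. The 5 granulosa markers summed to 532 to 661 CPM with IL-1β and 362 to 479 CPM with LPS, against 310 to 366 CPM with vehicle. Most of that sum was Inha, at a mean of 536 CPM with IL-1β, 369 CPM with LPS and 280 CPM with vehicle. Of the granulosa markers 3 rose and 1 fell with IL-1β, and 2 rose and 1 fell with LPS, Amh being the lower gene in both. The 6 surface epithelium markers summed to 19.2 to 21.0 CPM with IL-1β and 17.3 to 23.0 CPM with LPS, against 34.1 to 35.2 CPM with vehicle. Of these 2 rose and 3 fell with each stimulus. Krt8 fell by 1.21 ± 0.07 with IL-1β and by 1.26 ± 0.07 with LPS, and Msln rose by 3.17 ± 0.25 with IL-1β and by 3.02 ± 0.25 with LPS.

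The wider pathway was described by 7 other lists with 67 genes tested, of which 13 rose and 42 fell with IL-1β and 10 rose and 45 fell with LPS. The median log2 fold change of these genes was -0.23 with IL-1β and -0.34 with LPS. The shares called over all genes tested, given above, are the background for the counts of each list.

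**Figure D4:**
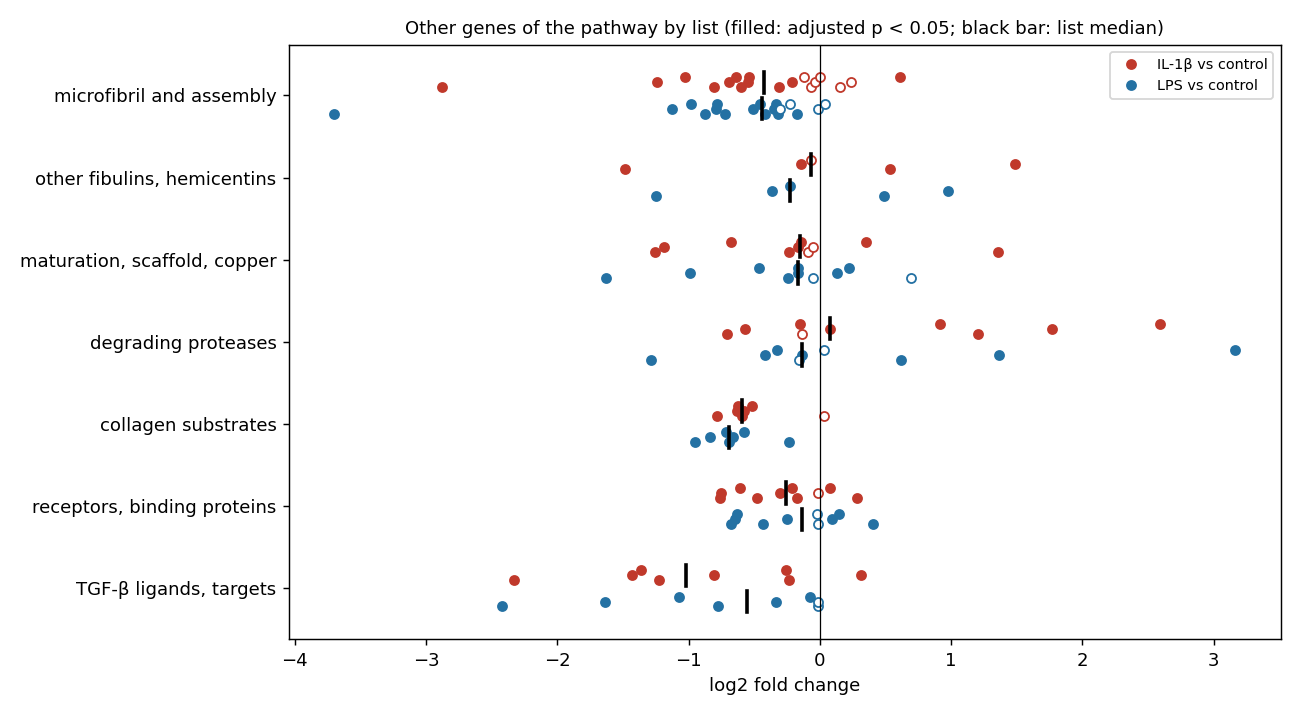
Log2 fold change (horizontal axis) of the other genes of the pathway by list (rows), with IL-1β in the upper and LPS in the lower line of each row; filled points had an adjusted p under 0.05 and a black bar marks the list's median. Collagen substrates and TGF-β genes lie mostly below 0, and the degrading proteases spread to both sides.

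Of 18 other microfibril and assembly genes, 11 fell and 1 rose with IL-1β, while 14 fell and 0 rose with LPS (medians -0.42 and -0.44). Ltbp1, which ties latent TGF-β to fibrillin, fell by 0.55 ± 0.03 with IL-1β and by 0.51 ± 0.03 with LPS. Adamts10, which promotes fibrillin-1 microfibrils, fell by 0.31 ± 0.03 and by 0.34 ± 0.03, IL-1β first. Emilin1, an elastic fibre glycoprotein, stood at 0.00 ± 0.05 with IL-1β, with a sign that turned in several alternatives, and fell with LPS (-0.31 ± 0.05). Its relative Emilin2 rose with IL-1β (0.61 ± 0.10).

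Other fibulins and hemicentins went both ways. Of 5 tested, 2 rose and 2 fell with IL-1β, and 2 rose and 3 fell with LPS, while Hmcn2, with at most 19 counts in a library, was not tested. Efemp1, the gene of fibulin-3, rose by 1.49 ± 0.08 with IL-1β and by 0.98 ± 0.09 with LPS. Fbln2 rose by 0.54 ± 0.14 with IL-1β and by 0.49 ± 0.14 with LPS, and the second call was lost with LPS replicates 1 and 2 alone (0.30, adjusted p = 0.108 in edgeR). Efemp2, the gene of fibulin-4, which brings pro-lysyl oxidase to tropoelastin, fell by 0.14 ± 0.03 with IL-1β and by 0.23 ± 0.03 with LPS.

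Of 10 genes for the maturation, scaffolding and copper supply of lysyl oxidases, 6 fell and 2 rose with each stimulus. Bmp1, the protease that frees active lysyl oxidase from its precursor, rose by 0.35 ± 0.03 with IL-1β and by 0.13 ± 0.03 with LPS. Its relative Tll2 rose with IL-1β (1.36 ± 0.33), at 14 to 20 counts per IL-1β library and 4 to 10 per control library. Pcolce, an enhancer of that protease, fell by 0.14 ± 0.03 with IL-1β and by 0.24 ± 0.03 with LPS. Fn1, the gene of fibronectin, a scaffold of both enzymes, rose with LPS (0.22 ± 0.04). With IL-1β it stood at -0.09 ± 0.04 (adjusted p = 0.0835 in edgeR), which was called when Control 4 (-0.11), IL-1β 4 (-0.12) or LPS 2 (-0.09) was left out. Fn1 was also called with no low-count filter (adjusted p = 0.00198), on 8 libraries (adjusted p = 0.0188) and with LPS replicates 1 and 2 alone (adjusted p = 0.0146), all in edgeR.

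Proteases that degrade elastin or microfibrils rose in 5 of 9 and fell in 3 with IL-1β, and rose in 3 and fell in 4 with LPS. The gelatinase gene Mmp2 rose by 0.92 ± 0.09 with IL-1β and by 0.62 ± 0.09 with LPS. The stromelysin gene Mmp3 rose by 1.77 ± 0.18 with IL-1β and by 1.37 ± 0.18 with LPS. Mmp9, the other gelatinase gene, rose by 2.59 ± 0.12 with IL-1β and by 3.17 ± 0.12 with LPS. It had 20.3 to 24.2 CPM with LPS, against 1.94 to 2.73 CPM with vehicle. Mmp14 fell by 0.57 ± 0.03 with IL-1β and by 0.41 ± 0.03 with LPS, and the cathepsin gene Ctsl by 0.15 ± 0.03 and by 0.14 ± 0.03, IL-1β first. Ctsb rose slightly with IL-1β (0.08 ± 0.02), and stood at 0.03 ± 0.02 with LPS, where it was not past the threshold except with library size alone (0.07). Ctss, an elastolytic cathepsin of macrophages, fell by 0.71 ± 0.09 with IL-1β and by 1.28 ± 0.10 with LPS.

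Collagen genes whose products lysyl oxidases cross-link fell in 6 of 7 with IL-1β and in 7 of 7 with LPS (medians -0.59 and -0.69). Col1a1 fell by 0.52 ± 0.06 with IL-1β and by 0.83 ± 0.06 with LPS. Col1a2 fell by 0.79 ± 0.06 and by 0.95 ± 0.06, IL-1β first, and a second numbered row of this symbol stands in the table, so its counts are uncertain. Col3a1 stood at 0.03 ± 0.07 with IL-1β and fell with LPS (-0.24 ± 0.07).

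Receptors and binding proteins of elastin and microfibrils fell in 7 of 10 and rose in 2 with IL-1β, and fell in 5 and rose in 3 with LPS. Itgb1, the integrin β1 chain, fell by 0.76 ± 0.03 with IL-1β and by 0.65 ± 0.03 with LPS. Itgav, the αv chain, fell with IL-1β (-0.18 ± 0.03) and rose with LPS (0.10 ± 0.03). The direct difference of LPS from IL-1β was 0.27 ± 0.03 (adjusted p = 1.13e-07 in edgeR). Its rise with LPS was not called without LPS replicate 4 (0.07) or with LPS replicates 1 and 2 alone (0.05). Itga5 rose by 0.28 ± 0.03 with IL-1β and by 0.40 ± 0.03 with LPS. Itga8 fell with IL-1β (-0.21 ± 0.04) and rose with LPS (0.14 ± 0.04). Rpsa, a ribosomal protein gene also described as a laminin receptor, stood at -0.01 ± 0.03 with IL-1β and -0.02 ± 0.03 with LPS, neither past the threshold. Glb1, whose splice form is the elastin binding protein, was called higher with IL-1β (0.08 ± 0.03), a call lost without any of Control replicates 2, 3 and 4 (0.06 to 0.09) or IL-1β replicates 1, 2 and 4 (0.07 to 0.08). It was also lost for Glb1 with DESeq2 (0.07), with DESeq2 size factors in edgeR (0.07) and with no low-count filter (0.08).

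As background, TGF-β drives elastin and lysyl oxidase genes in many mesenchymal cells, and whether it did so here was not tested. Of 8 genes for its ligands and direct targets, 7 fell and 1 rose with IL-1β (median -1.02). With LPS 6 fell and 0 rose (median -0.55). Ctgf, a target also known as Ccn2, fell by 1.43 ± 0.06 with IL-1β and by 1.07 ± 0.06 with LPS. Tgfb1 rose with IL-1β (0.31 ± 0.06) and stood at -0.01 ± 0.06 with LPS, with a sign that turned in 5 alternatives. Skil fell with IL-1β (-0.26 ± 0.03). Its call with LPS (-0.07 ± 0.03) was lost without any of Control replicates 1, 2 and 3 or LPS replicates 1 and 2 (-0.07 to -0.06). It was also lost for Skil with no low-count filter (-0.07) and with library size alone (-0.03).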

How the data were processed

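Raw read counts per gene symbol were deposited by the authors, 1 column per library, with no normalization. The tools named in the submitters' processing notes are DESeq2, SAMtools and TopHat2 2.1.1, and the build is Rnor_6.0. Libraries were made with a stranded mRNA kit, per the labels' protocols. The counting program, annotation and handling of strand and shared reads are not given in the sources used here, so overlapping, antisense and near-identical genes may share counts.

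Group differences were modelled with edgeR 4.0.16 under R 4.3.3 (filterByExpr, TMM, group as the only term over 12 libraries, robust glmQLFit, two-sided quasi-likelihood F-tests, Benjamini-Hochberg adjustment over 17330 genes). SE is the absolute log2 fold change over the square root of F. Alternatives used DESeq2 1.42.0 and limma 3.58.1, other scalings, filters and library sets. Ratios were computed in R, while sequences were searched and figures drawn with Python 3.11.15. On simulated data with these depths, 92% of 50 genes changed 2-fold were called in the IL-1β against control setting, with 16 false calls among 17230 genes. Of 50 genes changed 1.25-fold 72% were called. Far fewer genes were changed there than the 47.7% called with IL-1β in the data, so the false calls do not carry over.

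The members and lists were chosen with earlier results of these data known. Named genes are all members, the 3 genes of highest mean CPM in each list, and genes called against most of their list. A gene that this rule names is not reported here. Near-identical rows were sought at a count correlation of at least 0.995 and a mean count within 0.15 on the log2 scale. For Mfap4 the search returned 5 rows, LOC102553715, RGD1561161, Ckb, Cnn1 and Lmod1. It also returned LOC367746 for Eln (r = 0.995) and Lbh for Loxl2 (r = 0.997). Such a match can be a gene of similar level and course, and shared reads were not tested. Promoter positions are those of GRCr8, not of the build used for the counts.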

Additional observations from a re-analysis of the deposited data

Results flagged for a closer look

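Of 30 groups of 4 libraries (10 genes in 3 groups), 3 had a library apart from the others, where chance gives about 1 in 20 groups. Loxl2 in IL-1β replicate 1 had 123 CPM, against 125.6 to 126.2 CPM in the other IL-1β libraries. Loxl2 in LPS replicate 3 had 127 CPM, against 130.1 to 130.6 CPM in the other LPS libraries. Loxl3 in IL-1β replicate 4 had 14.1 CPM, against 13.09 to 13.15 CPM in the other IL-1β libraries. No call of Loxl2 or Loxl3 against control was lost without that library.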

How the results depend on the processing

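Across 22 alternatives and 3 comparisons, 626 of 660 member values kept both direction and side of the threshold, 6 lost a call, 23 gained one and 5 changed sign, all 5 in Fbln1 with LPS against control. For named genes of the wider lists 1316 of 1359 values kept both. The number of members higher with LPS than with IL-1β, 1 in the report, was 2 with no low-count filter, 2 with a stricter filter, 2 on 8 libraries, 3 with DESeq2, 3 with limma-voom, and 1 to 3 with single libraries left out. With the replicate number as a block it was 3. Over all genes tested, same-numbered libraries deviated together only weakly (r from -0.03 to 0.12, over 0.1 in 1 of 12 pairs). Yet 8 of 12 libraries correlated best with a library of their own number. Lox, Eln, Fbn1 and Mfap4 also shared an order by replicate number, described below. The labels state no pairing, so the numbers were not taken as pairs, and a shared preparation cannot be told from these data. With LPS replicates 1 and 2 alone, added after seeing the data, 960 genes were higher and 1019 lower with LPS than with IL-1β, against 1960 and 1831 with all libraries. Fewer libraries were tested there.

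Values that changed sign were all close to 0 and not called. Fbln1 with LPS was 0.0068 with library size alone, 0.0649 with LPS replicates 1 and 2 alone, and -0.0951 to 0.0113 with single libraries left out. Emilin1 with IL-1β was -0.0030 with DESeq2 size factors, -0.0027 with DESeq2 and -0.0279 to 0.0461 with single libraries left out. With library size alone Rpsa was 0.0396 with IL-1β and 0.0167 with LPS, Glb1 was 0.0248 with LPS and Tgfb1 was 0.0282 with LPS. Tgfb1 was also 0.0295 with LPS replicates 1 and 2 alone, and -0.0444 to 0.0424 with single libraries left out. With single libraries left out Emilin2 with LPS ran from -0.0541 to 0.0876 and Col3a1 with IL-1β from -0.0032 to 0.0691. The cause of these changes was not tested. The share of higher genes among those called with IL-1β was 51.7% by TMM and 64.1% with library size alone. With LPS it was 53.0% and 63.4%, and the median of all genes shifted by 0.05 with IL-1β and by 0.04 with LPS.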

Other observations

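In Lox, Eln, Fbn1 and Mfap4 the libraries numbered 2 and 4 were both higher than the libraries numbered 1 and 3 in each of the 3 groups. Such an order in all 3 groups was seen in 4 of the 10 genes and in 289 of all 17330 genes tested (1.67%), and the opposite order in 0 and 226. This was noticed after the values were seen and was not tested. The labels do not say what the replicate numbers stand for.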
